A study of Mus musculus with 2 samples.

Results

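The 8 genes described here are among the usual transcripts by which macrophages are called classically or alternatively activated: Nos2, Slc7a2, Mrc1, Chil3, Retnla, Il4ra, Il10 and Cd40. They were found by symbol, each on 1 of the 27998 gene rows. Expression was read in macrophage and monocyte cells, taken as cells with at least 1 UMI (a counted molecule) of the receptor Csf1r or of the complement genes C1qa, C1qb or C1qc and fewer than 2 UMIs of the markers of each other lineage. That gate held 4034 of 5167 cells, 1977 in one library and 2057 in the other.

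The cells were CD45+ leukocytes of subcutaneous Lewis lung carcinoma (LLC) tumors, a mouse lung carcinoma line grown for 14 days in C57/BL6 mice implanted at 8 weeks and listed as 10 weeks of age. Control mice carried floxed miR-21 alleles (mir-21flox/flox), and the conditional knockout carried the same alleles with LysMCre, a recombinase driven from the Lyz2 locus that is active in macrophages, monocytes and granulocytes. Cells of 3 mice were pooled into 1 droplet library per genotype, so differences between them could not be checked against replicates, and the intervals (95%) cover counting error only. The titles wt and cko go against the source text, in which the wt library is given as the conditional knockout, and the growth text names a macrophage sort. Libraries are therefore named by their titles, as labelled wt or labelled cko, and each direction below rests on these titles.

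The whole libraries held 2449 and 2718 cells with medians of 8359 and 8247 UMIs, and 5 cell barcodes occurred in both. Lyz2, the gene that receives the Cre, was at 19552 CPM (UMIs scaled to a common total over the cells of the gate or range described) in macrophage and monocyte cells labelled wt and at 9342 CPM in those labelled cko. In the gate Csf1r was seen in 96.0% and 96.6% of cells, and all 12 macrophage and monocyte markers had UMIs in both libraries. Lymphoid cells (181 and 208), dendritic cells (71 and 106) and neutrophils (20 and 50) were gated for comparison. The summed level of 6 neutrophil markers in macrophage and monocyte cells was 583 CPM labelled wt and 667 CPM labelled cko, and none of the 6 was at 0.

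Macrophages answer IL-4 and IL-13 through a receptor that contains IL4RA and activates STAT6, which raises the mannose receptor, chitinase-like proteins and RELMα. Interferon gamma and bacterial products raise the inducible nitric oxide synthase and CD40 instead. The substrate of nitric oxide synthase is arginine, which enters the cell through cationic amino acid transporters. In tumors the arms of this scheme often overlap in the same tissue.

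On GRCm38 the nitric oxide synthase gene is Nos2 (chr11:78920787-78960254, plus strand), and the arginine transporter is Slc7a2 (chr8:40862396-40922308, plus strand). The genes named for IL-4 responses are Mrc1 (chr2:14229392-14332057, plus strand), Chil3 (chr3:106147554-106167564, minus strand) and Retnla (chr16:48842551-48844461, plus strand). Il4ra (chr7:125552120-125579474), Il10 (chr1:131019845-131024974) and Cd40 (chr2:165055627-165072948) are on the plus strand.

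The microRNA deleted in the conditional knockout pairs with messenger RNA through bases 2 to 8 of its mature strand, shown here in capitals (RefSeq, GRCm38.p6, chr11:86584120-86584141, minus strand), so that the letters of its sites can be set against the 8 genes.

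mmu-miR-21a-5p: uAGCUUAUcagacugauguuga

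The 7 bases complementary to that seed, ATAAGCT, occurred in the annotated 3′ UTR of 7.13% of 21004 protein-coding genes. Among the 8 genes, with 3′ UTRs of 160 to 5774 bases, they occurred once, in Slc7a2, the arginine transporter, on chromosome 8 at 40918322 to 40918328 (GRCm38). The site is printed because it is the only one found.

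Slc7a2 site: tgctctttggcATAAGCTgacgttcattg

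Slc7a2 itself had 7 UMIs in macrophage and monocyte cells labelled wt and 9 in those labelled cko, so its level could not be compared at this depth (log2 ratio cko over wt 0.34, interval −1.25 to 2.00).

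The number of cells that held each gene was examined first. Since deeper cells show more genes, each cell was thinned to 3000 UMIs and the share of cells with at least 1 UMI was taken. At that depth 4 genes, Chil3, Il4ra, Mrc1 and Cd40, were seen in more than 10% of cells in both libraries, and the other 4 were rare. Chil3, which encodes the secreted chitinase-like protein Ym1, was seen in 43.2% of cells labelled wt (interval 41.1 to 45.5) and 51.9% labelled cko (49.7 to 54.1). Il4ra was seen in 26.6% (24.7 to 28.6) and 29.1% (27.1 to 31.1) of cells. Mrc1, the mannose receptor CD206, was seen in 19.98% (18.2 to 21.8) and 15.7% (14.1 to 17.3). For Cd40, the co-stimulatory receptor that binds CD40 ligand on T cells, the shares were 12.3% (10.9 to 13.9) and 11.96% (10.6 to 13.4). The intervals of the libraries, which cover counting error only, did not overlap for Chil3 and Mrc1, and overlapped for Il4ra and Cd40. The share of all genes whose intervals part in this way was not taken.

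Without thinning, the shares were 55.2% and 63.2% for Chil3, 55.1% and 59.0% for Il4ra, 34.4% and 30.1% for Mrc1, and 28.6% and 28.5% for Cd40. Free RNA in the droplets was gauged from lymphoid cells, gated by at least 2 UMIs of T or NK markers and no Csf1r UMI. Leaving out cells with Csf1r may lower this gauge. Unthinned, C1qb was still seen in 36.5% and 52.4% of lymphoid cells, so a single C1q UMI is no sure mark of a macrophage. Their median depth was 5812 and 6489 UMIs against 8511 and 8291 in the macrophage and monocyte cells. At 3000 UMIs lymphoid cells held Chil3 in 4.42% and 6.25% of cells, Mrc1 in 1.66% and 0%, and Cd40 in 1.66% and 0.962%, all far under the macrophage and monocyte shares. Il4ra, which T cells use as well, was seen in 8.84% and 10.6% of lymphoid cells.

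Nos2, the inducible nitric oxide synthase, was held by 28 of 1977 cells labelled wt and 25 of 2057 labelled cko (1.42% and 1.22% unthinned, 0.860% and 0.583% at 3000 UMIs). Of the lymphoid cells, 1 of 181 and 1 of 208 held a Nos2 UMI unthinned, and 0 and 0 did at 3000 UMIs. By a limit of 3 counts for a count of 0, that allows up to 1.66% and 1.44% of lymphoid cells with a UMI at that depth, which says nothing of cells that express the gene without a UMI. Il10, an anti-inflammatory cytokine, was held by 25 and 42 cells, and at 3000 UMIs by 0.253% and 0.486% of cells. Beside 1.10% and 0.481% of lymphoid cells, its share did not stand above theirs beyond counting error. Whether the lymphoid Il10 UMIs were free RNA was not tested: unthinned, 11 of the 12 labelled cko lay in 1 cell. Slc7a2 was held by 6 and 7 cells. Retnla, which encodes RELMα, was held by 1 cell labelled wt with 15 UMIs and by 0 of 2057 cells labelled cko, which by the same limit allows up to 0.146% of cells with a UMI.

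**Figure D1:**
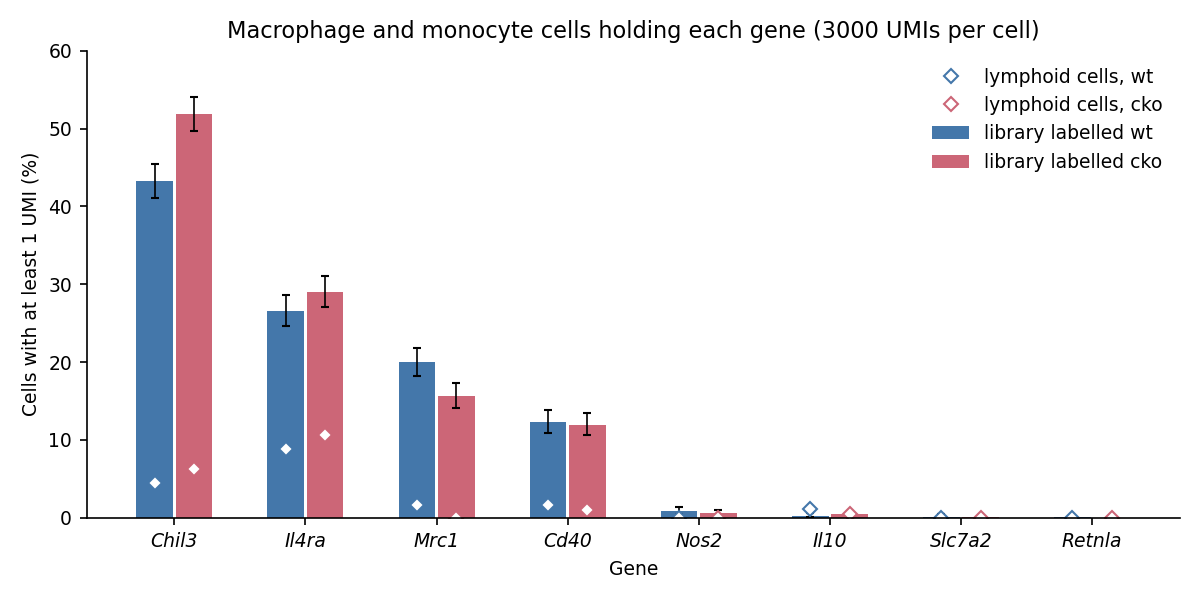
Share of macrophage and monocyte cells with at least 1 UMI of each gene (bars, percent, cells thinned to 3000 UMIs, exact 95% intervals) in the library labelled wt (blue) and labelled cko (red), with the share of lymphoid cells as diamonds. Chil3 has the tallest bars at 43.2% and 51.9%, and Nos2, Il10, Slc7a2 and Retnla all lie under 1%.

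The part of a gene's UMIs held by its 10 richest cells was also read. It depends on how many cells hold the gene. Of the 67 Nos2 UMIs labelled wt and the 44 labelled cko, the 10 richest cells held 70.1% and 65.9%. No cell held more than 8 Nos2 UMIs labelled wt or 7 labelled cko, and 16 of the 28 and 18 of the 25 Nos2 cells held a single UMI. Chil3 was spread over many cells, with 6.79% and 6.25% of its UMIs in the richest 10. Mrc1 lay close to Chil3 in this respect, with 9.19% and 10.9%. Il10, held by 25 and 42 cells, had 48.3% and 41.1% of its UMIs in the richest 10. These shares mostly restate that Nos2 was held by few cells in both libraries, and Chil3 and Mrc1 by many.

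The libraries were compared next on UMIs summed over the gate. Of 9507 genes that reached 100 UMIs when the libraries were added, 225 (2.37%) differed by at least 1.5-fold. In cells labelled cko 1.69% were higher, and 0.673% were lower. Of the 8 genes 5 reached 100 UMIs and 2 of them passed 1.5-fold, Chil3 higher and Nos2 lower. Counts this small cannot be read as a departure from the background of 2.37%.

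Chil3 was at 800.2 CPM labelled wt (15778 UMIs, interval 788 to 813) and 1552 CPM labelled cko (30979 UMIs, interval 1534 to 1569). That is 1.94-fold higher in the library labelled cko (log2 ratio 0.96, interval 0.93 to 0.98), and 99.7% of the genes tested had a lower ratio. The difference was not in a few cells: the 75th, 90th and 99th percentiles of cells held 10.5, 31.3 and 92.9 Chil3 UMIs per 10000 labelled wt and 21.5, 62.8 and 149.6 labelled cko. Cells with at least 50 UMIs per 10000 made up 5.11% and 13.1%. Chil4, the closest paralog on the list examined, had 1 UMI in each library, and how reads that match both were assigned is not given in the sources used here.

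**Figure D2:**
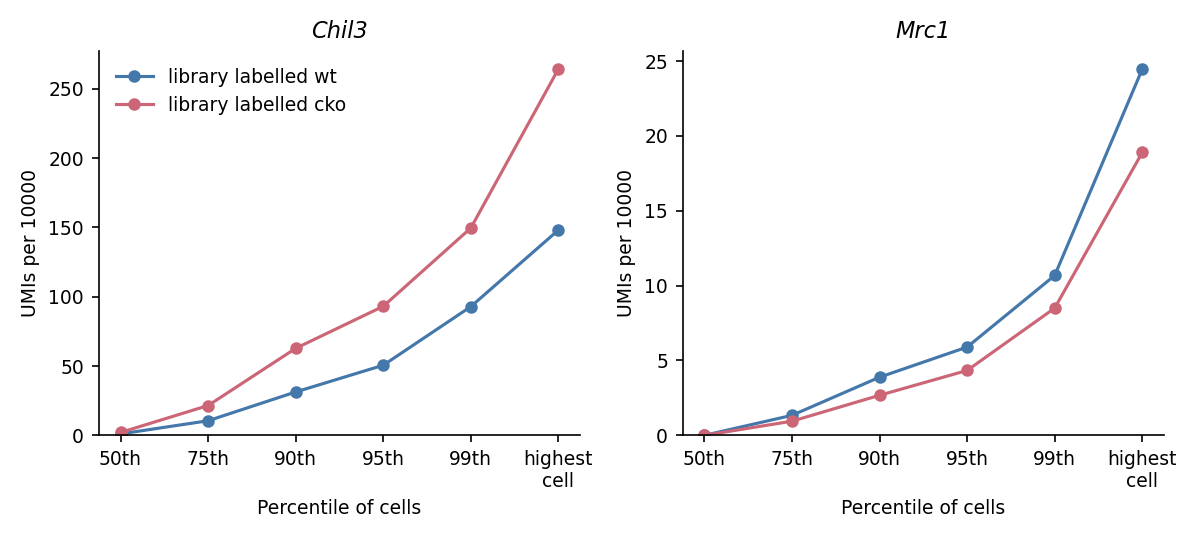
Level of Chil3 (left) and Mrc1 (right) in UMIs per 10000 at percentiles of macrophage and monocyte cells, up to the highest cell. The cko line lies above the wt line for Chil3 (90th percentile 62.8 against 31.3) and below it for Mrc1 (2.68 against 3.89).

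Neutrophils also make Chil3, and their markers were therefore set beside it. The neutrophil gate held Chil3 at 439 and 528 CPM, in 5 of 20 and 9 of 50 cells, but a single cell held 29 of the 39 UMIs labelled wt and 96 of the 125 labelled cko. Retnlg, a neutrophil gene whose sum with Cxcr2 the gate limits, was at 9.74 and 20.5 CPM within the macrophage and monocyte gate. Csf3r, which the gate does not use, was at 50.01 and 51.2 CPM, and Cxcr2 was at 1.57 and 1.502 CPM. In lymphoid cells Retnlg was at 15.9 and 20.5 CPM and Chil3 at 17.3 and 22.9 CPM. The log2 ratio of Chil3 was 0.93 with the neutrophil limit lifted, and the part of these cells in it was otherwise not tested.

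Mrc1 was at 149.6 CPM labelled wt (2950 UMIs, interval 144 to 155) and 106 CPM labelled cko (2119 UMIs, 102 to 111), a log2 ratio of −0.50 (interval −0.58 to −0.41) that falls short of 1.5-fold. As a mean of the 4 ranges described below, a setting chosen later, the ratio was −0.71, which passes 1.5-fold.

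Nos2 was at 3.40 CPM (67 UMIs) and 2.20 CPM (44 UMIs), a log2 ratio of −0.62 (interval −1.21 to −0.05). The call was not stable to the gate. In the neutrophil gate Nos2 was held by 3 of 20 cells labelled wt (15.0%, interval 3.21 to 37.9) and 13 of 50 labelled cko (26.0%, interval 14.6 to 40.3). Without the neutrophil limit the Nos2 ratio in the macrophage and monocyte gate was −0.13, in the stricter gate, whose cells all lie inside that limit, −0.27, and over every cell with a Csf1r or C1q UMI −0.06. The ratio was under 1.5-fold in each, and the part of neutrophils in it was not tested.

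The receptor gene Il4ra was at 118 and 124 CPM, with a log2 ratio of 0.08 (−0.00 to 0.16), and Cd40 at 53.2 and 53.1 CPM (−0.00, interval −0.12 to 0.12). Il10 had 29 and 56 UMIs, under the limit for a call, with a log2 ratio of 0.93 (interval 0.26 to 1.63). Over every cell with a Csf1r or C1q UMI it reached that limit, and its ratio was 0.83. Retnla had 15 UMIs labelled wt, all in a single cell, and 0 labelled cko, so no fold is given for it.

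**Figure D3:**
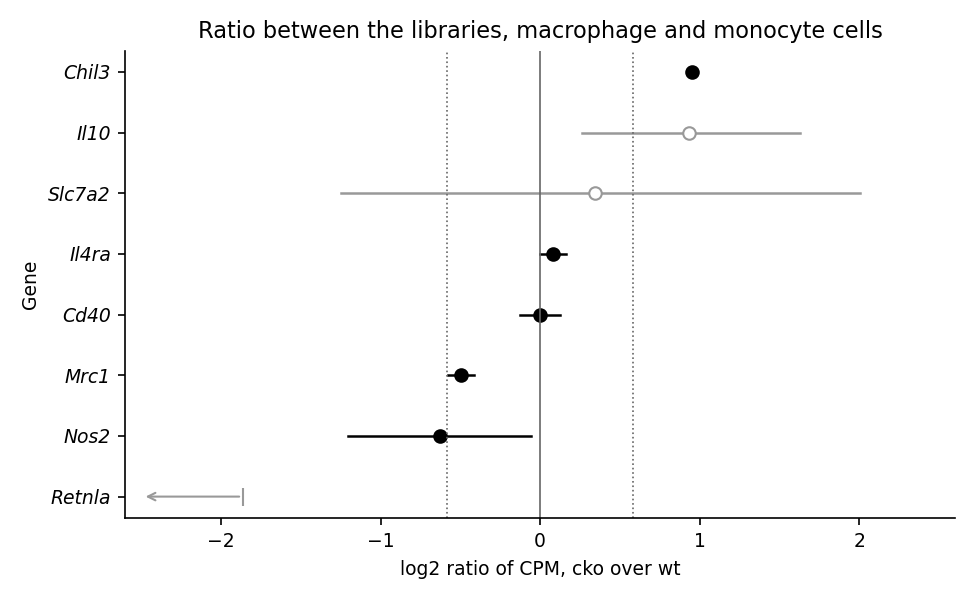
log2 ratio of CPM, cko over wt, of each gene in macrophage and monocyte cells with exact 95% intervals for counting error; filled points are genes with at least 100 UMIs, open points fall below that, the arrow starts at the upper limit of the interval for Retnla (−1.86), and dotted lines mark 1.5-fold. Chil3 lies at 0.96, Mrc1 at −0.50 and Nos2 at −0.62, and Il4ra and Cd40 lie near 0.

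The upstream sequences of Chil3 and Retnla are printed because both genes are textbook IL-4 targets, and one was abundant here while the other was confined to 1 cell. Windows of 250 bases before to 50 after the start (RefSeq, GRCm38.p6) were on hand for 4 of the 8 genes: Mrc1, Chil3, Retnla and Il4ra. Capitals mark matches, on either strand, to the STAT6 motif TTCNNNNGAA, the gamma-activated motif TTCNNNGAA, the PU.1 motif GAGGAAGT and the C/EBP motif TTGCNNAA. Of 27025 promoters of the same length, 6.99%, 8.47%, 3.28% and 10.8% held these.

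Chil3, chr3:106167515-106167814, minus strand: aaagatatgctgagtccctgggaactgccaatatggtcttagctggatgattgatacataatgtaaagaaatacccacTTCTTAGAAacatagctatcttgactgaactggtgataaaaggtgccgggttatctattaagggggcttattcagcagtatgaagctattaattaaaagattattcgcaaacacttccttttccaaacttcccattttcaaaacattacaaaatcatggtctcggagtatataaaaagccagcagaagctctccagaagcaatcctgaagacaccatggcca

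Retnla, chr16:48842359-48842658, plus strand: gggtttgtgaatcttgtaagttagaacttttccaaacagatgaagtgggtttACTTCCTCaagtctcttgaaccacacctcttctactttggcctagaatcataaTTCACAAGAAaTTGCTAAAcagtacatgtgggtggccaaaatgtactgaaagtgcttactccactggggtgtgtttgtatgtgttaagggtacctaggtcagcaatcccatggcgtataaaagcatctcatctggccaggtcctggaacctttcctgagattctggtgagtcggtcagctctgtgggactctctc

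The Retnla window held a STAT6 match at −145 to −136, a C/EBP match at −134 to −127 and a PU.1 match at −198 to −191, counted from the start. The Chil3 window held a gamma-activated match at −172 to −164 and none of the other motifs. No match to the 4 motifs lay in the windows of Mrc1 and Il4ra.

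Whether the genes followed the passage from monocyte to macrophage was then described. Ly6c2 marks classical monocytes and C1q genes mark macrophages, and the gate was cut at 2 Ly6c2 UMIs and 10 C1q UMIs per 10000 into 4 ranges, which are not cell types. Within a factor of 2 of the Ly6c2 limit lay 434 and 423 cells, and 157 and 161 lay as near to the C1q limit. The Ly6c2-high C1q-low range held 662 and 615 cells, Ly6c2-high C1q-high 242 and 196, Ly6c2-low C1q-high 540 and 728, and Ly6c2-low C1q-low 533 and 518.

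Chil3 and Mrc1 ran in opposite directions along these ranges. Chil3 was highest in Ly6c2-high C1q-low cells, at 1938 CPM labelled wt and 3991 CPM labelled cko, and lowest in Ly6c2-low C1q-high cells, at 108 and 189 CPM. The Ly6c2-high C1q-high range lay between, at 551 and 1319 CPM, as did the Ly6c2-low C1q-low range, at 712 and 1707 CPM. Mrc1 was lowest in Ly6c2-high C1q-low cells, at 38.9 and 22.6 CPM, and highest in Ly6c2-low C1q-high cells, at 278 and 183 CPM.

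In each of the 4 ranges Chil3 was higher and Mrc1 lower in the library labelled cko, with counting intervals that left out 0. How many of all genes keep their direction in this way was not counted. The log2 ratio of Chil3 ran from 0.81 to 1.26, and that of Mrc1 from −0.89 to −0.58. The span of Mrc1 moved with the limits. At 4 Ly6c2 and 20 C1q UMIs it ran from −1.55 (interval −2.02 to −1.11) in Ly6c2-high C1q-low cells to −0.44 in Ly6c2-low C1q-low cells. In both libraries Mrc1 held the same order of the ranges, and the Chil3 order was the same as well.

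Il10 UMIs lay mostly in Ly6c2-low C1q-high cells, 23 of 29 labelled wt and 50 of 56 labelled cko. Il4ra varied little, from 99.2 to 139 CPM labelled wt and from 109 to 133 CPM labelled cko. Its log2 ratio was 0.35 (interval 0.16 to 0.54) in Ly6c2-low C1q-low cells, and its interval included 0 in the other 3 ranges. Cd40 was highest in Ly6c2-high C1q-high cells, at 68.0 CPM (interval 58.0 to 79.1) and 79.4 CPM (67.3 to 93.1), and lowest in Ly6c2-low C1q-low cells, at 43.2 and 42.6 CPM. The log2 ratio of Cd40 was −0.31 (interval −0.56 to −0.07) in Ly6c2-high C1q-low cells, and its interval included 0 in the other 3 ranges. Nos2 was highest in Ly6c2-low C1q-low cells, at 10.04 CPM labelled wt (43 UMIs in 14 cells) and 3.38 CPM labelled cko (13 UMIs in 10 cells). There its log2 ratio was −1.57 (interval −2.59 to −0.65), and in the other 3 ranges its interval included 0, with ratios of 0.85, 0.93 and −0.11. The mean over the 4 ranges was 0.024, so the direction of Nos2 turned when the ranges were weighted equally. With the limits at 4 Ly6c2 and 20 C1q UMIs that ratio was −1.41 (interval −2.30 to −0.59), and with the limits at 1 and 5 it was −0.69 with an interval that includes 0 (−1.78 to 0.34).

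**Figure D4:**
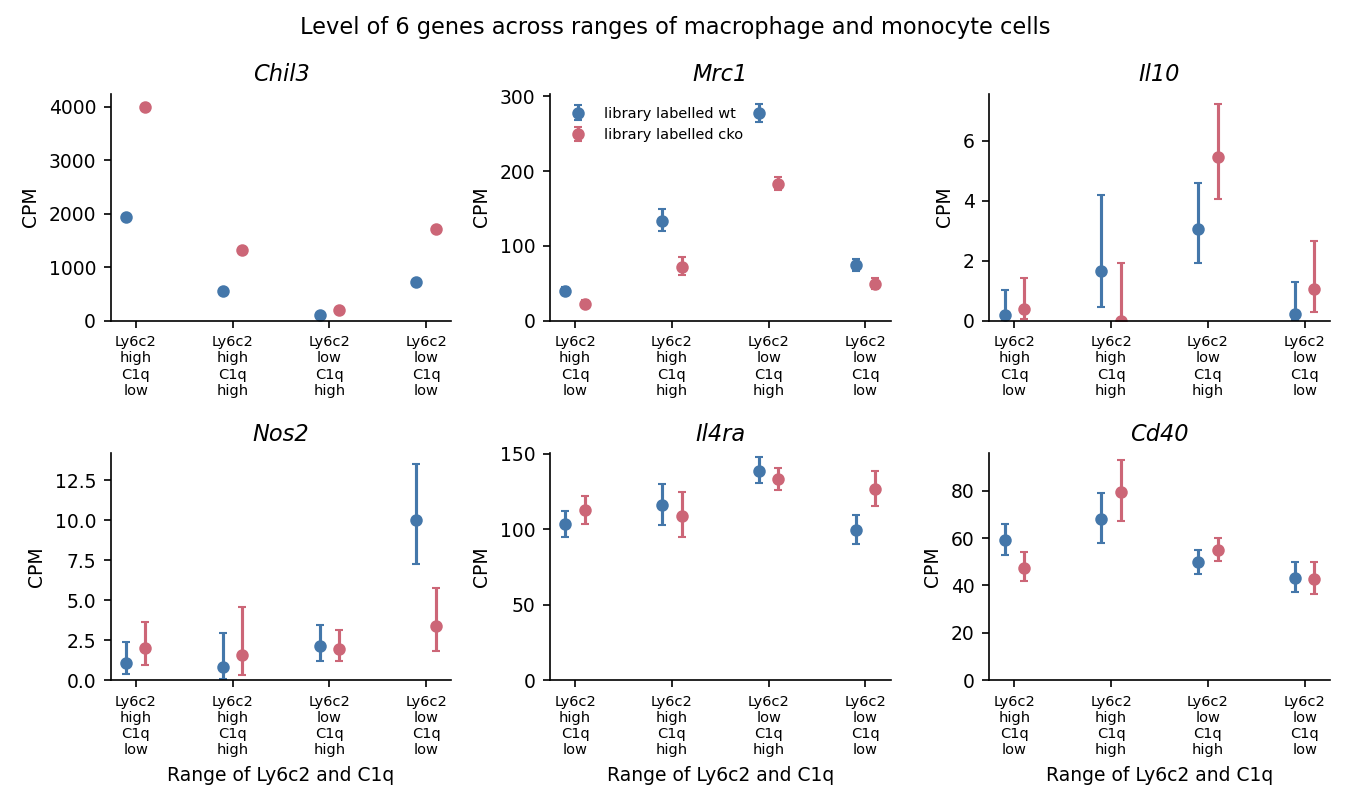
CPM of 6 genes in the 4 ranges of macrophage and monocyte cells, in the library labelled wt (blue) and labelled cko (red), with exact Poisson 95% intervals for counting error. Chil3 falls from 1938 and 3991 CPM in Ly6c2-high C1q-low cells to 108 and 189 CPM in Ly6c2-low C1q-high cells, and Mrc1 rises from 38.9 and 22.6 to 278 and 183 CPM.

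Joint and exclusive expression was counted cell by cell. With cells split by depth into 5 equal bins, the product of the shares of the genes within bins gave the number of joint cells to set beside each count. Mrc1 and Chil3 met in 310 and 314 cells against products of 360 and 370, 0.860 (interval 0.767 to 0.962) and 0.850 (0.758 to 0.949) times the product. In a stricter gate (a Csf1r UMI, and at least 10 Csf1r and C1q UMIs per 10000) the ratios were 0.935 (0.817 to 1.07) and 0.922 (0.811 to 1.04), with intervals that include 1. With cells thinned to 3000 UMIs the product was taken over all cells at that depth, without bins. Against that product the ratios were 0.574 (0.466 to 0.699) and 0.562 (0.454 to 0.688).

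Mrc1 and Il10 were seen together in 24 and 34 cells against products of 16.8 and 21.8 (1.43 and 1.56 times, intervals 0.914 to 2.12 and 1.08 to 2.18). In the stricter gate these ratios were 1.21 and 1.35, and both intervals include 1. Il10 and Cd40 met in 18 and 21 cells, 1.62 and 1.27 times the product, with intervals that include 1. For Nos2 and Mrc1, which stand for opposite arms of the scheme, 8 and 10 cells held both against 8.52 and 6.71. Nos2 and Chil3 met in 15 cells in each library against 15.4 and 16.2. The joint counts of Nos2 with these genes did not differ from the products beyond counting error. No cell held Nos2 and Il10 in either library, where the products were 0.318 and 0.413 cells.

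Taking Nos2, Mrc1 and Il10 alone, 64.5% and 68.7% of cells held none of them and 32.8% and 28.002% held Mrc1 only. Nos2 was seen without Mrc1 and Il10 in 20 and 15 cells, Il10 without the other two in 1 and 8, and no cell held all 3. Across the 8 genes, 193 and 145 cells held none and 33.5% and 31.02% held exactly 1.

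**Figure D5:**
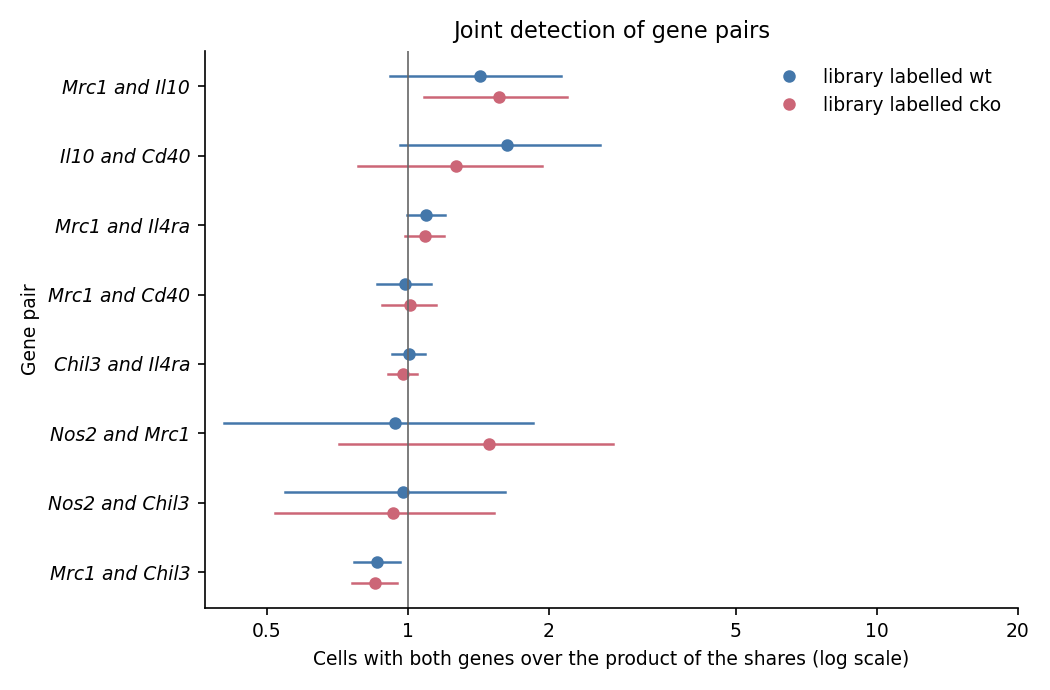
Cells that hold both genes of a pair, divided by the product of the shares of the genes within 5 depth bins (log axis), in the library labelled wt (blue) and labelled cko (red), with Poisson 95% intervals of the joint count. Mrc1 and Il10 stand at 1.43 and 1.56, and Mrc1 and Chil3 at 0.860 and 0.850.

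The few cells with Nos2 were described by their other genes. They had median depths of 7397 and 8002 UMIs and lay in part in the Ly6c2-low C1q-low range, 14 of 28 and 10 of 25. Genes with at least 20 UMIs in these cells in each library were ranked by the smaller of the 2 folds over cells without Nos2, an order made after the values were seen and given with no test. The first were Pdpn, which encodes podoplanin, Il7r, the interleukin-7 receptor, and the chemokine Cxcl3. Cxcl3 was at 698 and 405 CPM against 6.98 and 12.5 CPM in cells without Nos2. Hilpda, a lipid droplet protein induced by low oxygen, was at 1131 and 729.6 CPM against 34.9 and 46.1. Egln3, an oxygen-sensing hydroxylase, was at 216 and 255 CPM against 8.83 and 10.95.

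Spp1, which encodes osteopontin, reached 7381 and 3222 CPM in Nos2 cells against 208 and 262 CPM in cells without Nos2. The metallothioneins Mt2 and Mt1 were also among the 12 leading genes, with Mt1 at 1630 and 2238 CPM against 209 and 273. Mrc1 was at 123 and 284 CPM in Nos2 cells against 149.95 and 104 CPM in cells without it.

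Cells with Il10 were described in the same way. They were deep, with medians of 21568 and 13058 UMIs, and 24 of 25 and 34 of 42 of them held Mrc1. Their leading genes were Ccl12, Igf1, Gas6 and Fcrls, with Ccl12 at 794 and 974 CPM against 183 and 183 CPM in cells without Il10.

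The genes whose levels followed each common gene most closely across cells were listed among 7950 genes, as a description across 1977 and 2057 cells that share a library and its depth. Mrc1 was most like Pf4 (Pearson r of 0.64 and 0.63 labelled wt and cko), Dab2 (0.60 and 0.56) and Ms4a7 (0.60 and 0.53). Chil3 was most like Hp (0.49 and 0.60), Plac8 (0.48 and 0.58) and Mgst1 (0.50 and 0.55). Cd40 was most like the interferon-induced genes Ifi205 (0.39 and 0.39), Cxcl10 (0.38 and 0.38) and Ifi47 (0.36 and 0.36). For Il4ra the highest values, with Dab2, Pf4 and Ctsl, were at most 0.24. Chil3 and Mrc1 had r of −0.25 and −0.28 with each other.

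Other genes of the same pathways were compared from 4 lists. Of 23 genes of alternative activation 14 were tested: Chil3 and Pparg were higher, Mgl2 and Ccl8 were lower in cells labelled cko, and the median log2 ratio was −0.04 beside 0.03 over all genes tested. Over all genes 1.69% were higher and 0.673% lower, and these lists were chosen with earlier results known. Pparg, a nuclear receptor needed for alternative activation, was at 25.7 CPM labelled wt and at 42.5 CPM labelled cko, a log2 ratio of 0.72 (0.56 to 0.89). Ccl8, a monocyte chemokine, was at 321 and 165 CPM (−0.96, interval −1.02 to −0.90), and Mgl2, a C-type lectin, was at 42.2 and 26.99 CPM (−0.65, interval −0.81 to −0.49).

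Of 22 genes of classical activation 18 were tested, none was higher, only Nos2 was lower, a call that other gates did not keep as given above, and the median was −0.09. Among 19 genes of arginine, nitric oxide and polyamine metabolism 14 were tested with a median of 0.04, and Nos2 alone passed 1.5-fold, with the same limit. Of 19 genes of IL-4, IL-13, IL-10 and CD40 signalling 15 were tested, none passed 1.5-fold and the median was 0.04. Il10rb had the most UMIs of them, at 144 and 138 CPM. Il4 had 1 and 2 UMIs and Il13 had 0 in the whole libraries.

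Levels in the other gates placed the genes among leukocytes. Cd40 was at 127 CPM labelled wt and 89.3 CPM labelled cko in dendritic cells, above the macrophage and monocyte values in both libraries and held by 38.0% and 34.9% of cells. Nos2 was at 45.0 and 131 CPM in neutrophils against 3.40 and 2.20 CPM in macrophage and monocyte cells. Mrc1 was at most 25.3 CPM in the other gates. Macrophage and monocyte cells, 82.5% and 77.8% of all kept cells, held 92.9% and 83.8% of the Mrc1 UMIs and 88.2% and 47.8% of the Nos2 UMIs. Labelled cko, they held 2119 of 2530 Mrc1 UMIs, and lymphoid, dendritic and neutrophil cells held 1, 14 and 6. The rest lay in cells of none of these gates.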

How the data were processed

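CD45+ cells of 2 pools of 3 mice were profiled with 10x Genomics 3′ chemistry. The authors deposited raw UMI counts per gene and called cell. The submitters' processing notes name Cell Ranger, Seurat and mm10, with no versions. Their expression values were not used. Cells with under 200 genes or over 10% mitochondrial UMIs were dropped (4 labelled wt, 14 labelled cko). Scrublet's automatic threshold marked 7 cells (0.136%), so the highest-scoring 1.96% and 2.17% were removed instead (48 and 59 cells). The gate left out cells with 2 or more UMIs of T, NK, B, neutrophil, dendritic or tumor markers.

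UMIs were summed per library and expressed as CPM. Log2 ratios (cko over wt) have exact conditional binomial intervals, shares of cells Clopper-Pearson intervals and CPM Poisson intervals. With 1 library per genotype there is no test and no p-value. The ratio and its interval were also run on simulated counts with known folds. Thinning to 3000 UMIs left out no cell. The other settings concern the gate, doublets, filters, scaling, cell weights, minimum counts, thinning and range limits. Named genes were the 8 genes, list genes past 1.5-fold or, if none, with the most UMIs, and the 3 most correlated genes. Marker genes, the paralog and the ligands are named beside these as checks, and the leading genes of Nos2 and Il10 cells fall outside this rule and were picked after their values were seen. The 8 genes and the lists were chosen with earlier results of these data known, and 1 further gene of the set is not reported here. Coordinates and 3′ UTRs are of GENCODE M21 (GRCm38), using the longest 3′ UTR of each gene. Python 3.11.15, scanpy 1.11.5, numpy 2.4.6, scipy 1.17.1 and pandas 2.3.3 were used.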

Additional observations from a re-analysis of the deposited data

How the results depend on the processing

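No paired analysis was possible because each genotype has 1 library, and no replicate could be left out. Of 5 genes tested, 2 passed 1.5-fold. The number was 1 (Chil3) in the stricter gate and 1 (Chil3) without the neutrophil limit, a setting chosen after seeing the data. It was 4 of 8 at a minimum of 10 UMIs, where Il10 and Retnla joined, Retnla with 15 UMIs of 1 cell. Over every cell with a Csf1r or C1q UMI it was 2 of 6, Chil3 and Il10 in place of Chil3 and Nos2. The share of all genes past 1.5-fold was taken at the main settings only, so these counts have no such share beside them. The log2 ratio of Chil3 was 0.87 over every cell with a Csf1r or C1q UMI, 0.68 in the stricter gate, 0.92 under median-of-ratios scaling and 1.09 as a mean of the 4 ranges, also chosen later. That mean was −0.71 for Mrc1 and 0.024 for Nos2, which takes Mrc1 past 1.5-fold and reverses Nos2. With 1000 UMIs per cell, 1 gene labelled wt and 2 labelled cko were seen in 10% of cells, in place of 4. With cells thinned to 3000 UMIs the product was taken over all cells, without bins, and so differs from the unthinned one. The joint ratio was then 0.574 and 0.562 for Mrc1 and Chil3. For Mrc1 and Il10 it was 3.00 (from 3 joint cells, interval 0.619 to 8.78) labelled wt and 1.92 (0.395 to 5.60) labelled cko. The cause of these shifts was not tested. Slc7a2 changed sign among settings, within its counting interval. Over 9 settings Chil3 stayed between 0.68 and 1.09, Mrc1 between −0.71 and −0.46 and Il4ra between 0.00 and 0.12.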
